A study of Mus musculus with 18 samples.

Results

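The 9 genes described here encode tight junction proteins that are not claudins: the scaffold proteins *Tjp1* (ZO-1), *Tjp3* (ZO-3), *Pard3*, *Patj* and *Cgn* (cingulin), and the transmembrane proteins *Ocln* (occludin), *Marveld2* (tricellulin), *Marveld3* and *F11r* (junctional adhesion molecule A). They were taken by gene name from the 55401 genes of the deposited tables, and each name matched 1 gene. RNA was sequenced from microdissected thick ascending limbs (TAL) of the mouse kidney, with the cortical part (CTAL) and the medullary part (MTAL, from the inner stripe) kept separate. All animals were adult and carried floxed *Cldn10* alleles (*Cldn10* fl/fl, C57BL/6J strain label). Animals that also carried Ksp-Cre, a Cre recombinase driven by the Ksp-cadherin promoter in the distal nephron, are called cKO, and their littermates without Cre are called WT. WT animals gave 5 CTAL and 5 MTAL pools, cKO animals 5 CTAL and 3 MTAL pools, each pool holding 150 to 200 tubules of a single mouse. The study found cKO MTAL hard to dissect because of nephrocalcinosis (calcium deposits), and left out further cKO pools, which were not analysed here.

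Tight junctions seal the space between epithelial cells and set which ions pass along it. Claudins form the pores and barriers of the strands, and in the TAL *Cldn10* is known for sodium passage and *Cldn16* and *Cldn19* for calcium and magnesium passage. ZO proteins bind claudins, occludin and the actin cytoskeleton from inside the cell. Cingulin binds ZO-1 and the cytoskeleton, occludin, tricellulin and Marveld3 share the MARVEL membrane domain, and tricellulin sits where 3 cells meet. JAM-A is an adhesion protein of the immunoglobulin superfamily that recruits Pard3, and Pard3 and Patj belong to complexes that set apical and basal polarity.

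The pools held 10824299 to 62339939 estimated counts. In CPM (counts scaled to the TMM-normalized total of each pool), the targeted gene *Cldn10* was at 500.7 ± 83.61 (SD, n = 5) in WT CTAL and 172.7 ± 10.83 (n = 5) in cKO CTAL, and at 756.2 ± 59.77 (n = 5) in WT MTAL and 215.4 ± 66.01 (n = 3) in cKO MTAL, so that *Cldn10* RNA was lower in cKO but still present. *Slc12a1* (NKCC2), the defining transporter of the TAL, lay between 11420 and 16190 CPM in all 18 pools. The pool used here as WT CTAL replicate 1 carries a knockout genotype label but a WT pool name. Its *Cldn10* was 446.3 CPM, where the highest cKO CTAL pool had 184.9. *Xist* exceeded 5 CPM in 2 WT CTAL pools, 4 WT MTAL pools, 1 cKO CTAL pool and no cKO MTAL pool, although the study's methods describe male mice.

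Cells of the collecting duct, which runs beside the TAL, were not equally represented. The summed CPM of 6 principal cell markers, of which 5 exceeded 1 CPM in every pool, was 99.08 to 209.9 in WT CTAL, 57.47 to 262.3 in WT MTAL and 76.38 to 247.9 in cKO CTAL. In cKO MTAL it was 93.94, 98.63 and, in replicate 20, 830.5. The same pool had the highest sum of 5 intercalated cell markers, 188.6 CPM, where the other cKO MTAL pools had 31.55 and 49.24. In cKO CTAL replicate 2 this sum was 150.2 CPM, and *Slc12a3*, of the distal convoluted tubule, was at 60.8 CPM, its highest in any pool. The sum of 6 proximal tubule markers was 17.67, 78.45 and 65.38 CPM in cKO MTAL replicates 16, 18 and 20, against 16.78 to 31.14 in WT MTAL, 16.19 to 60.7 in WT CTAL and 11.75 to 74.57 in cKO CTAL. Of these markers 3 exceeded 1 CPM in every pool, and *Slc5a12* reached at most 0.9432 CPM in any. The sums of 6 endothelial markers did not overlap between cKO MTAL, at 104.3 to 148.5 CPM, and WT MTAL, at 175.3 to 286 CPM. In bulk RNA of this kind, fewer cells of a type and less RNA per cell cannot be told apart.

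On the mm10 (GRCm38) build, the scaffold genes *Tjp1* (chr7:65296165-65527781), *Tjp3* (chr10:81273207-81291581) and *Cgn* (chr3:94760069-94786492) lie on the minus strand, and *Pard3* (chr8:127063893-127612286) and *Patj* (chr4:98395785-98719603) on the plus strand. The MARVEL genes *Ocln* (chr13:100496507-100552718), *Marveld2* (chr13:100595957-100616971) and *Marveld3* (chr8:109947914-109962203) are on the minus strand and *F11r* (chr1:171437535-171464603) on the plus strand. *Ocln* and *Marveld2* are neighbours, with 43238 bases and 2 annotated genes between them. *Tjp3* overlaps *Apba3* on the opposite strand. The libraries were made with a strand-specific kit, but whether the counting used the strand is not given in the sources used here, so that it is uncertain whether reads of the overlap were kept apart.

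*Tjp3*, *Marveld2* and *F11r* were the members with the largest ratio between their highest and lowest group mean, and their promoters are shown as the sequence beside the genes that results below turn on. Each run is the 250 bases before the RefSeq start on GRCm38.p6, read 5′ to 3′ on the gene's strand, at chr10:81291582-81291831 (minus), chr13:100616972-100617221 (minus) and chr1:171437311-171437560 (plus). RefSeq promoters matched 8 of the 9 members by symbol. Capitals mark matches, on both strands, to CACCTG (the E-box of the Snail and ZEB type, in 17.2% of 32851 promoters) or GGGCGG (the GC box, in 32.7%). AACCNGTT, the core of the grainyhead motif, stood in 1.79% of promoters and in none of these 3.
Tjp3: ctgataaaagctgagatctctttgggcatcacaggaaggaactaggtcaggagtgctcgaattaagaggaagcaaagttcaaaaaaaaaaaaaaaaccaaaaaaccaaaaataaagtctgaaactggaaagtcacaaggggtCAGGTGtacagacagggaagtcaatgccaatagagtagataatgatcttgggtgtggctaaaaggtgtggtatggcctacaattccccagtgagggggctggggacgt
Marveld2: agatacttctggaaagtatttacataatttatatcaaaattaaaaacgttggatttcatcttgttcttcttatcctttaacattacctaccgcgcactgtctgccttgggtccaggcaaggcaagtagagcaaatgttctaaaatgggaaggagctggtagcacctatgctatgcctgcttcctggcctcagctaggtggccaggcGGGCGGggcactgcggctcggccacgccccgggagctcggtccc
F11r: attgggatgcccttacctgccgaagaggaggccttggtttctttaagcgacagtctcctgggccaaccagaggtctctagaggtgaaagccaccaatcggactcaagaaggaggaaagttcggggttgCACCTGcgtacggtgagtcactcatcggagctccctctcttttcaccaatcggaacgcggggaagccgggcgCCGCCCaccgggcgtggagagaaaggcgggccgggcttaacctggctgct
The *Tjp3* and *F11r* windows held 1 CACCTG each and the *Marveld2* window none, while the *Marveld2* and *F11r* windows held 1 GGGCGG each and the *Tjp3* window none. A match describes letters only.

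All 9 genes were expressed in every pool, the lowest count being 254. Compared per length in deposited TPM, *Ocln* had the highest median over the 18 pools, at 59.5, and was above *Pard3* (38.6) in 18 of 18 pools. *Patj* (26.9), *F11r* (26.1), *Marveld3* (20.7) and *Tjp1* (19.5) followed, then *Tjp3* (15.1), *Cgn* (14.8) and *Marveld2* (14.1). *Pard3* was above *Patj* in 17 pools and *Tjp1* above *Tjp3* in 17, but *Marveld3* was above *Tjp1* in 9 pools, *Tjp3* above *Cgn* in 11 and *Cgn* above *Marveld2* in 10, so these last neighbours in the order were not separated beyond their spread. Over the range of all pools no neighbours were apart. The TPM and CPM of 1 gene did not always move together, which is described below for *Tjp3* and, in 1 pool, for *F11r*, *Patj*, *Ocln* and *Pard3*.

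**Figure D1:**
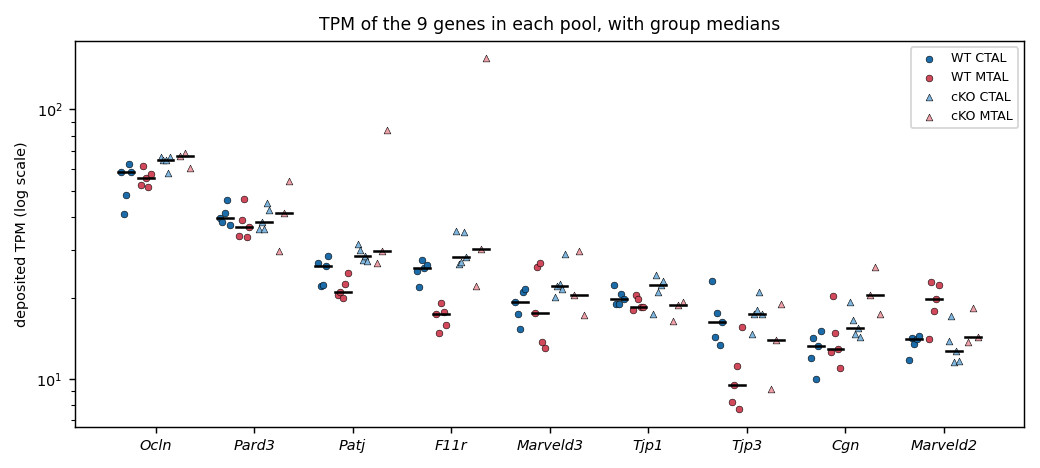
Deposited TPM (log axis) of the 9 genes, ordered by their median over all pools, with 1 point a pool and black lines for the group medians. *Ocln* was the highest in 17 of 18 pools, and in cKO MTAL replicate 20 *F11r* reached 154.9 TPM, the highest value plotted.

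The segments of WT animals were compared first, since they show how the genes are set along the TAL without the deletion. Of the 9 genes, *Marveld2* was higher in MTAL and *Tjp3* and *F11r* were lower, at adjusted p under 0.05 (edgeR quasi-likelihood test). In this comparison 6.87% of the 11650 genes tested passed, 2.76% higher and 4.10% lower. The groups did not overlap for 3 of the 9 members and for 7.30% of all genes. *Tjp3* alone also passed the fold threshold of 1 on the log2 scale, in either direction, as did 2.32% of genes.

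*Tjp3* was at 38.58, 34.18, 30.11, 24.66 and 30.15 CPM in WT CTAL and at 18.53, 12.46, 13.95, 13.70 and 18.74 CPM in WT MTAL. Every MTAL pool was below every CTAL pool. The means were 31.54 ± 5.192 and 15.48 ± 2.939 CPM (SD, n = 5 each), a log2 fold change of -1.04 (SE 0.16, edgeR adjusted p = 0.0004325). ZO-3 is known as a ZO protein largely restricted to epithelia. The call held in the 10 fits with 1 pool left out, with log2 fold changes of -1.12 to -0.96. It was lost on deposited TPM (log2 fold change -0.66, limma adjusted p = 0.1188), where the groups overlapped, at 13.33 to 22.98 against 7.707 to 15.58 TPM. The TPM per CPM of *Tjp3* was 0.4196 to 0.5956 in WT CTAL and 0.4417 to 0.8315 in WT MTAL. WT MTAL replicates 13 (0.7598), 15 (0.7978) and 19 (0.8315) had the highest of all pools.

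*Marveld2*, the tricellular gene, moved the other way. It was at 28.31, 34.27, 32.44, 31.54 and 34.5 CPM in WT CTAL and at 36.01, 49.04, 42.35, 54.92 and 58.55 CPM in WT MTAL, without overlap. The log2 fold change was 0.57 (SE 0.13, edgeR adjusted p = 0.01005), from a mean of 32.21 ± 2.51 to 48.17 ± 9.163 CPM (SD, n = 5 each). The 10 fits with 1 pool left out gave 0.50 to 0.66 with the call kept, and limma on TPM gave 0.47 (adjusted p = 0.1433).

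*F11r* was at 46.95, 44.25, 50.18, 42.72 and 45.95 CPM in WT CTAL, a spread of 2.836 (SD) around 46.01. In WT MTAL it was at 36.48, 26.69, 37.51, 40.15 and 32.43 CPM, all below the CTAL pools, with a mean of 34.65 ± 5.248 (n = 5). The log2 fold change was -0.42 (SE 0.12, edgeR adjusted p = 0.03889). The call rested on single pools: it was kept in 3 of 10 fits with 1 pool left out (those without WT MTAL replicates 11, 15 or 17), and the adjusted p reached 0.1042 without WT CTAL replicate 8. It was also lost with no filter on low counts (0.08619) and in 1 fit of all 18 pools (0.09129). Counting WT CTAL replicate 1, the pool with the conflicting label, as cKO is here the same fit as leaving it out (0.09819).

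The remaining 6 genes did not pass. *Pard3*, at 83.62 ± 6.016 CPM in WT CTAL and 97.42 ± 9.001 in WT MTAL, had a log2 fold change of 0.21 (95% interval 0.025 to 0.40, edgeR adjusted p = 0.1907). The other 5, *Tjp1*, *Patj*, *Cgn*, *Ocln* and *Marveld3*, had log2 fold changes of -0.06 to 0.18. *Tjp1* was the tightest of them, with a 95% interval of -0.12 to 0.18, and *Cgn* among the widest, at -0.099 to 0.47. Markers of other cell types also moved with the segment: the sum of 4 thin limb markers, 3 of them above 1 CPM in every pool, was 25.39 to 140.1 CPM in WT CTAL and 106.9 to 197.4 in WT MTAL. Their part in the results was not tested.

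**Figure D2:**
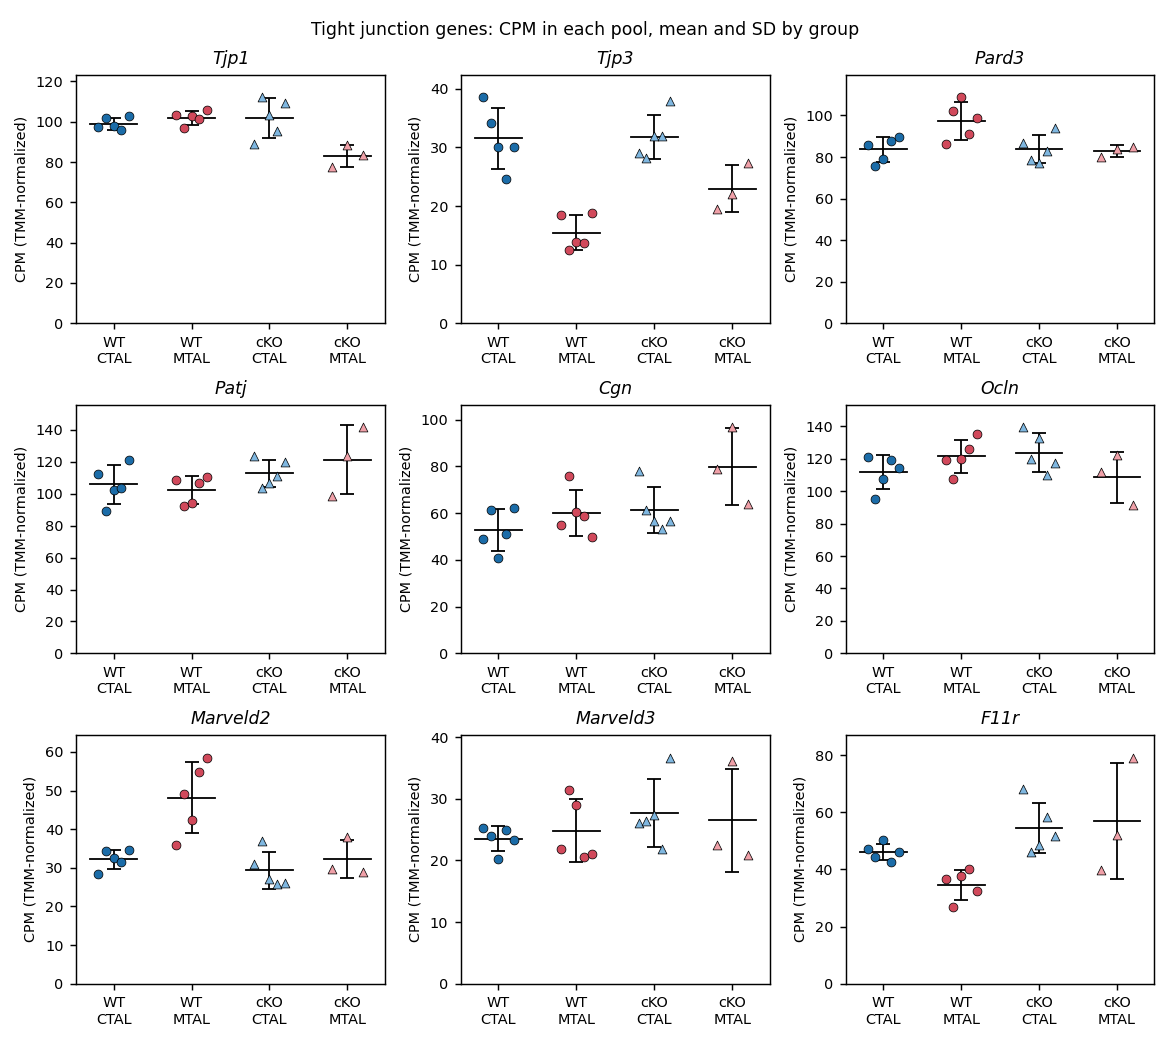
CPM (TMM-normalized) of the 9 genes in each of the 18 pools, with horizontal lines for group means and bars for SD. *Tjp3* and *F11r* were lower and *Marveld2* higher in WT MTAL than in WT CTAL without overlap, while *Tjp1*, *Ocln* and *Patj* overlapped between these groups.

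Next, cKO and WT pools were compared in MTAL, the segment with more *Cldn10* in WT. *F11r* passed the test and was higher in cKO MTAL, and none of the other 8 genes passed, against 7.01% of the 12060 genes tested (4.44% higher). At an unadjusted p under 0.05 there were 6 of the 9 members, the last of them, *Tjp1*, at rank 2553 by p among the 12060 genes. The WT MTAL pools are those of the comparison of segments, so both comparisons share them. *F11r* was at 39.79, 51.9 and 79.12 CPM in cKO MTAL, against 26.69 to 40.15 in WT MTAL, so that the lowest cKO pool fell within the WT range. The log2 fold change was 0.77 (SE 0.20, edgeR adjusted p = 0.03153), from 34.65 ± 5.248 (SD, n = 5) to 56.94 ± 20.15 CPM (n = 3).

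The highest value, 79.12 CPM, was that of cKO MTAL replicate 20, the pool with the collecting duct markers at 830.5 CPM. Without it the log2 fold change of *F11r* was 0.46 (edgeR adjusted p = 0.1888). The call was also lost without WT MTAL replicate 11 (0.05333), 13 (0.06029), 15 (0.05516) or 19 (0.07265), and on deposited TPM (limma, 1.43, adjusted p = 0.1428). The pools with the higher *F11r* values, replicates 18 (51.9 CPM) and 20 (79.12 CPM), were also those with proximal tubule markers at 78.45 and 65.38 CPM. In replicate 20 that sum was mostly *Slc34a1* (30.95) and *Lrp2* (28.05), with *Cubn* at 4.231 and *Slc5a2* at 0.4637. *Slc22a6* (1.681) and *Slc5a12* (0) were lower there than in replicate 16 (1.831 and 0.2113). In replicate 18 only *Slc5a12* (0.04934) was lower than in replicate 16. The part of collecting duct and proximal tubule cells in the values of *F11r* was not tested.

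*Tjp3* was at 19.51, 22.01 and 27.42 CPM in cKO MTAL, each above the highest WT MTAL pool (18.74) and each below the lowest cKO CTAL pool (28.2). Its log2 fold change against WT MTAL was 0.62 (95% interval 0.16 to 1.09), which did not pass the correction (edgeR adjusted p = 0.09299). It passed in 1 fit of all 18 pools (adjusted p = 0.01423). With a term for the pools with *Xist* above 5 CPM added to that fit it also passed (0.04585). This term was chosen after the data were seen. *Marveld2*, at 29.79, 37.99 and 28.98 CPM, had a log2 fold change of -0.53 (95% interval -0.91 to -0.15, adjusted p = 0.08442), with the highest cKO pool inside the WT range. *Cgn*, at 79.01, 96.66 and 64.05 CPM against 49.99 to 76.05 in WT MTAL, had 0.46 (0.12 to 0.80, adjusted p = 0.09466). The single fit of 18 pools, in which all groups share 1 estimate of the spread, called these 3 genes with *F11r*, and it called 17.1% of all genes. With the *Xist* term added, *Marveld2* (edgeR adjusted p = 0.1103) and *Cgn* (0.05077) did not pass, and 9.113% of all genes did. With 1 pool left out, *Marveld2* passed without WT MTAL replicate 11 (edgeR adjusted p = 0.0479) and *Cgn* without WT MTAL replicate 13 (0.04603), fits in which *F11r* did not pass. Without cKO MTAL replicate 20 the log2 fold changes were 0.48 for *Tjp3* (adjusted p = 0.2919), -0.45 for *Marveld2* (0.2353) and 0.60 for *Cgn* (0.05562).

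The other scaffold genes differed less. *Tjp1* was at 77.32, 88.27 and 83.64 CPM in cKO MTAL, below every WT MTAL pool (96.74 to 105.9), with a log2 fold change of -0.25 (SE 0.11, edgeR adjusted p = 0.1872). *Pard3* was likewise below without overlap, at 79.78, 83.88 and 85.03 CPM against 86.09 to 108.8 (log2 fold change -0.18, adjusted p = 0.3903). Without overlap, 1 of 9 members was thus higher (5.61% of all genes) and 2 were lower (9.41%). *Patj*, with 0.30 (SE 0.13, adjusted p = 0.1704), *Ocln*, with -0.11, and *Marveld3*, with 0.14, overlapped between genotypes.

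In CTAL the deletion left the 9 genes without a call. Of the 11702 genes tested, 1.22% passed, and of the members 0 passed with edgeR, with 1 (*F11r*) at an unadjusted p under 0.05, as 11.8% of all genes. The DESeq2 likelihood ratio test also called 0 members, and 3.076% of all genes. *F11r* was at 67.97, 46.21, 48.69, 58.16 and 51.64 CPM in cKO CTAL, and 3 of these 5 pools exceeded the highest WT CTAL pool (50.18). Its log2 fold change was 0.23 (95% interval 0.017 to 0.45, adjusted p = 0.3731). The highest value, 67.97 CPM, was that of cKO CTAL replicate 2, the pool with intercalated cell markers at 150.2 and proximal tubule markers at 74.57 CPM. Without it the log2 fold change was 0.15 (edgeR adjusted p = 0.6485). The part of such cells in the value was not tested. For *Tjp3* the interval was -0.26 to 0.27, for *Tjp1* -0.14 to 0.19 and for *Marveld2* -0.39 to 0.099. Groups that did not overlap were found for 0 of 9 members and for 3.13% of all genes.

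**Figure D3:**
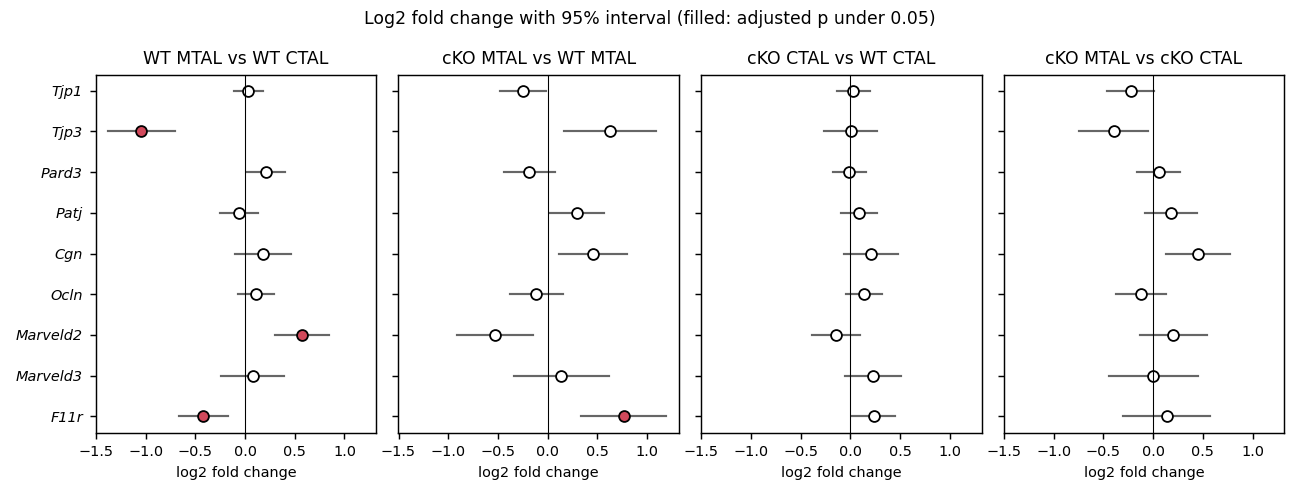
Log2 fold changes (points) with 95% intervals (lines) of the 9 genes in the 4 comparisons between groups, filled where the adjusted p was under 0.05. *Tjp3*, *Marveld2* and *F11r* are filled in the WT comparison of segments and *F11r* in the MTAL comparison of genotypes.

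Within cKO animals, the segments were compared to see whether the differences of WT were present. Again 0 members passed with edgeR, against 1.75% of 12044 genes, with 2 members at an unadjusted p under 0.05 (17.7% of all genes). The DESeq2 likelihood ratio test called 0 members as well, and 6.825% of all genes. *Tjp3* had a log2 fold change of -0.40 (SE 0.16, edgeR adjusted p = 0.218), with all 3 MTAL pools below the 5 CTAL pools. *Tjp1* was also below without overlap (-0.22, adjusted p = 0.3077), so that 2 of 9 members were lower without overlap, as were 7.28% of all genes. *Cgn* had 0.45 (95% interval 0.13 to 0.77, adjusted p = 0.1297). *Marveld2*, at 29.36 ± 4.722 CPM in cKO CTAL (n = 5) and 32.25 ± 4.985 in cKO MTAL (n = 3), had 0.20, and *F11r* had 0.14. Without cKO MTAL replicate 20 the values were -0.56 for *Tjp3* (edgeR adjusted p = 0.1005), 0.58 for *Cgn* (0.08384) and -0.19 for *F11r* (0.6394).

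Side by side, the segment difference of *Tjp3* was -1.04 in WT and -0.40 in cKO, and that of *Marveld2* 0.57 and 0.20. Whether they differed was asked with the interaction of genotype and segment over all 18 pools. Of 12586 genes, 0.286% passed, and 0 members did with edgeR, with 3 at an unadjusted p under 0.05 (14.7% of all genes). *Tjp3* had an interaction of 0.61 on the log2 scale (SE 0.22, adjusted p = 0.1908), *F11r* 0.52 (SE 0.22, adjusted p = 0.2844) and *Tjp1* -0.29 (SE 0.12, adjusted p = 0.2408). *Marveld2* had -0.40 (95% interval -0.82 to 0.021, adjusted p = 0.3671). Without cKO MTAL replicate 20, *Tjp3* had 0.46 (adjusted p = 0.4641) and *F11r* 0.21 (adjusted p = 0.779). A different response of the segments was therefore not shown for these genes.

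**Figure D4:**
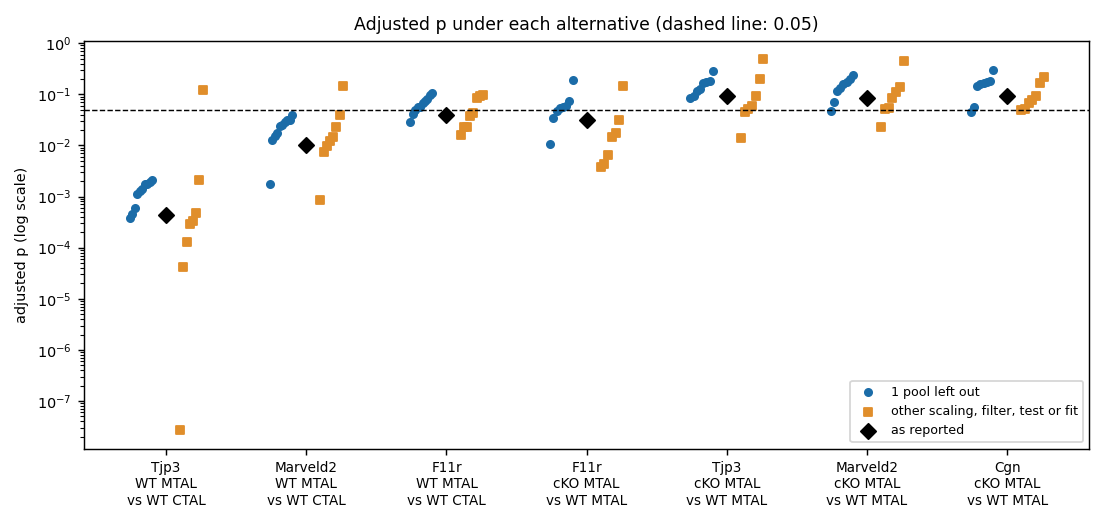
Adjusted p (log axis) of 7 results in the reported fit (diamonds), with 1 pool left out (circles) and under other scalings, filters, tests or fits (squares), with a dashed line at 0.05. *Tjp3* and *Marveld2* in WT stay under the line except in 1 square each, whereas *F11r* in both comparisons lies on both sides.

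In cKO MTAL replicate 20, deposited TPM and counts differed most for *F11r* and *Patj*. *F11r* had 154.9 TPM at 79.12 CPM, a TPM per CPM of 1.958, where the other 17 pools had 0.4406 to 0.6042. *Patj* had 83.57 TPM at 141.4 CPM, a ratio of 0.5909 where the others had 0.1878 to 0.2905. For *Ocln* the same pool had 60.42 TPM at 91.24 CPM (0.6622), where the others had 0.4121 to 0.6012. For *Pard3* it had 54.1 TPM at 85.03 CPM (0.6362), where the others had 0.3677 to 0.542. Since TPM divides the counts by the transcript length assigned in each pool, a gene's TPM can rise without its counts. Which transcripts were assigned was not analysed here, and the cKO MTAL means in TPM of *F11r* and *Patj* rest on this pool.

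**Figure D5:**
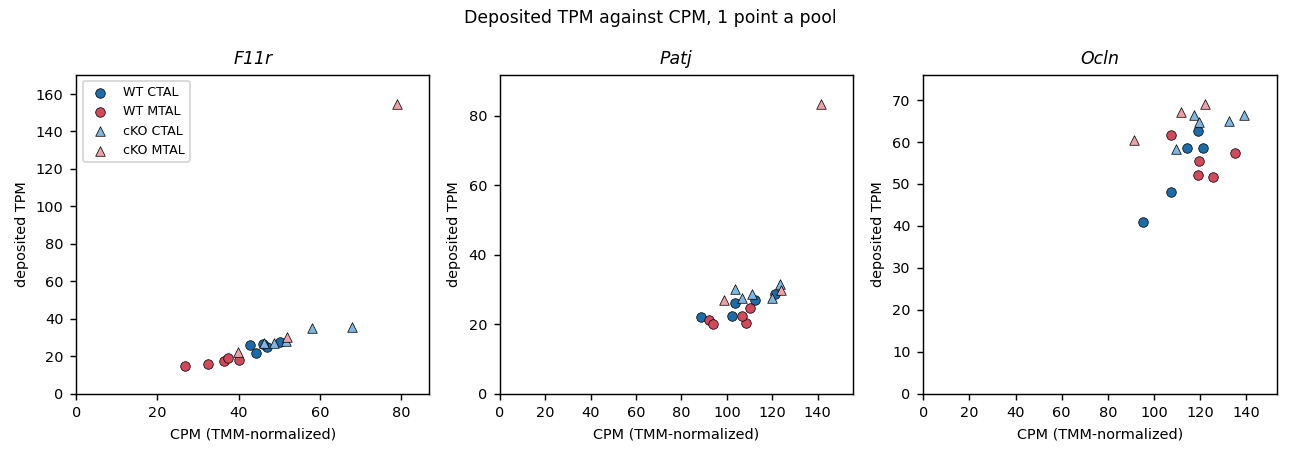
Deposited TPM against CPM for *F11r*, *Patj* and *Ocln*, with 1 point a pool. In *F11r* and *Patj* a single cKO MTAL pool lies far above the other points at 154.9 and 83.57 TPM, and in *Ocln* no pool stands as far away.

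The genes whose log2 CPM followed the members most closely over the 18 pools were named by Pearson's r, as a description over pools that share segment and genotype. For *Tjp3* they were *Aebp1* (0.95), *Foxq1* (0.93) and *Casr* (0.93), the calcium-sensing receptor. For *F11r* they were *Pde3b* (0.91), *Tbc1d1* (0.90) and *S100g* (0.90), and for *Marveld2* *Ndst1* (0.89), *Lmo7* (0.89) and *Ccni* (0.88). Among the members, *Tjp3* and *Marveld2* were opposed (r = -0.79), and *F11r* followed *Patj* (0.71) and *Tjp3* (0.66).

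Other tight junction genes, a list of 36 scaffolds, adhesion proteins and regulators without claudins, were counted beside the members. In WT MTAL against WT CTAL, 3 of 33 tested were higher (2.76% of all genes) and 2 lower (4.10%). These were *Magi3*, a membrane-associated guanylate kinase scaffold (log2 fold change 0.64, edgeR adjusted p = 0.003532), *Magi2* (0.83, 0.03719), *Mpp5* (Pals1, the partner of Patj, 0.57, 0.0009399), and, lower, *Magi1* (-0.81, 0.003414) and *Ildr2*, of the angulin family of tricellular junctions (-2.14, 0.01427). *Magi1* and *Magi3* thus moved in opposite directions, from 59.24 ± 10.96 to 34.01 ± 8.029 CPM and from 82.47 ± 15.1 to 129.2 ± 19.55 CPM (SD, n = 5 each). With 1 pool left out, *Mpp5*, *Magi1*, *Magi3* and *Ildr2* kept their calls in 10 of 10 fits, and *Magi2* in 4 of 10 (adjusted p up to 0.08208). *Ildr2* was low, at 11.35 ± 4.703 CPM in WT CTAL and 2.68 ± 2.947 in WT MTAL. The MTAL mean was under the 3 CPM of the filter, so that *Ildr2* entered the test mainly through CTAL. Without WT MTAL replicate 11 its log2 fold change was -3.05. The median log2 fold change of the list was 0.04, that of the members 0.08 and that of all genes tested 0.02.

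In cKO MTAL against WT MTAL, 1 of 32 was lower (2.57% of all genes), *Mpp5*, at 36.42 ± 4.327 (n = 3) against 57.74 ± 4.201 CPM (n = 5) (log2 fold change -0.61, edgeR adjusted p = 0.01816), and none was higher. This call was lost without cKO MTAL replicate 20 (-0.52, adjusted p = 0.06921). In CTAL 0 of 33 passed with edgeR between genotypes (1.22% of all genes), with 7 at an unadjusted p under 0.05 (11.8%). In cKO MTAL against cKO CTAL, 3 of 32 were higher (1.12% of all genes): *Mpdz*, the MUPP1 scaffold (1.11, adjusted p = 0.04055), *Magi3* (0.55, 0.04596) and *Esam*, an adhesion protein also known from endothelium (0.63, 0.01047). With 1 pool left out, *Esam* kept its call in 7 of 8 fits (0.05566 without cKO MTAL replicate 16), and *Mpdz* and *Magi3* in 2 of 8 each, with adjusted p up to 0.1283 and 0.133 without cKO CTAL replicate 9. The sum of the 4 thin limb markers also lay apart in this comparison, at 79.43 to 117.3 CPM in cKO MTAL and 18.69 to 46.56 in cKO CTAL, and its part in these results and in those of the members was not tested. The interaction called 0 of 33 with edgeR (0.286% of all genes), with 4 at an unadjusted p under 0.05 (14.7%). Of 11 adherens junction genes, among them *Cdh1* (E-cadherin) and *Ctnnb1* (beta-catenin), 10 or 11 were tested in each comparison and 0 passed with edgeR in any of the 5. Of all genes, 0.286% (interaction) to 7.01% (cKO MTAL against WT MTAL) passed, so that 0 of 10 or 11 is near these shares. At most 2 were at an unadjusted p under 0.05, in cKO MTAL against cKO CTAL, as were 17.7% of all genes.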

How the data were processed

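Of the pools sequenced by the authors, 18 were analysed here. The authors checked reads with FastQC, trimmed them (fastp in the methods, Trimmomatic in the submitters' processing notes), mapped them to mm10 with DRAGEN, quantified them with a gencode annotation and checked libraries with Picard. The deposited table of estimated counts holds values before any normalization. The deposited TPM values are corrected for transcript length. The library kit was strand specific, and the strand and multi-mapping settings of the counting are not given in the sources used here. Genes were placed on GRCm38 with GENCODE.

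Estimated counts were rounded and tested with edgeR 4.0.16 in R 4.3.3 (TMM factors, quasi-likelihood F test). Genes needed 3 CPM in 5 pools, or in 3 where cKO MTAL or all groups entered. The Benjamini-Hochberg adjustment ran over all genes tested, with a call under 0.05. Alternatives were DESeq2 1.42.0, other scalings, no filter, limma 3.58.1 on log2(TPM + 1) and 1 fit of all 18 pools. Others were another group for WT CTAL replicate 1 and each pool left out. An *Xist* term, added to the fit of all 18 pools, was chosen after seeing the data. The count fit was tested on simulated data. WT CTAL replicate 1 was grouped by its pool name. The members and gene lists were chosen with earlier results of these data known. Named genes were the members, called genes of the junction lists, and the 3 genes closest in Pearson's r to each of the 3 members with the largest ratio of group means.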

Additional observations from a re-analysis of the deposited data

How the results depend on the processing

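Each of the 9 genes was tested in 5 comparisons, under other scalings, filters, tests and fits and with each pool left out, in 828 results. Of these, 765 kept their direction and their side of the threshold, 18 lost a call, 6 gained one and 39 changed direction. Only results called in the reported fits could lose a call. Between WT segments, *Tjp3* and *Marveld2* each kept theirs in 10 of 10 fits with 1 pool left out and 7 of 8 others. *F11r* kept it in 3 of 10 and 5 of 8 there, and in 3 of 8 and 6 of 7 in the MTAL comparison of genotypes. Between WT segments, counting WT CTAL replicate 1 as cKO repeated the fit without it. In cKO MTAL against WT MTAL, the 1 gene called became 0 with limma on log2(TPM + 1) and 4 in 1 fit of all 18 pools. Adding the *Xist* term to that fit lowered the 4 to 2. With 1 pool left out, 0 to 1 were called. The gene called was *F11r*, except *Marveld2* without WT MTAL replicate 11 and *Cgn* without WT MTAL replicate 13. Of all genes, 845 (7.007%) were called there, against 258 (1.777%) with limma, 2060 (17.08%) in the single fit and 1099 (9.113%) with the *Xist* term. With 1 pool left out, 3.854% to 8.129% were called. In WT MTAL against WT CTAL, 3 became 1 with limma and 2 to 3 with 1 pool left out. The share of all genes called went from 6.867% to 3.186% with limma, and was 4.667% to 6.785% with 1 pool left out. The highest group was kept by 6 of 9 genes in TPM, by 8 on total counts and by 6 to 9 with 1 pool left out. The cause was not tested.

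The changes of direction were in comparisons in which the gene was not called. With limma on TPM, the log2 values were 0.23 (*Ocln*) and 0.10 (*Pard3*) in the MTAL comparison of genotypes, -0.078 (*Tjp1*), -0.015 (*Marveld3*) and -0.10 (*Pard3*) between WT segments, 0.029 (*Ocln*) and -0.058 (*Marveld3*) between cKO segments and 0.14 (*Pard3*) for the interaction. In CTAL, *Tjp3* was -0.00047 with DESeq2 size factors, and *Pard3* 0.042 on total counts, 0.0013 without a filter and 0.0062 with WT CTAL replicate 1 counted as cKO. Between cKO segments, *Marveld3* was -0.0083 with DESeq2 size factors, -0.046 without a filter, -0.026 in 1 fit of all pools and -0.059 with the *Xist* term, and *Pard3* was -0.0011 without a filter. With 1 pool left out, ranges were -0.19 to 0.0016 (*Ocln*) and -0.13 to 0.29 (*Marveld3*) in the MTAL comparison of genotypes, and -0.010 to 0.078 (*Tjp1*), -0.075 to 0.085 (*Tjp3*) and -0.054 to 0.018 (*Pard3*) in CTAL. They were -0.029 to 0.14 (*Marveld3*) between WT segments, -0.26 to 0.14 (*Marveld3*) and -0.19 to 0.30 (*F11r*) between cKO segments, and -0.36 to 0.045 (*Marveld3*) for the interaction.

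No paired analysis was possible because the groups share no replicate numbers. The lowest count of a member was 254, and cKO MTAL had 3 pools.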
